A study of Rattus norvegicus with 12 samples.

Results

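The miRNA cargo of extracellular vesicles (EVs) secreted by rat bone marrow mesenchymal cells (MSC-EVs) was compared with that of EVs from mature hepatocytes (MH-EVs). The comparison takes 6 of the 12 arrays of the series, 3 of MSC-EVs and 3 of MH-EVs, chosen by their labels, and all 727 rat miRNA probes of the array. The other 6 arrays carry EVs of Thy1-positive cells of injured liver (Thy1-EVs, 3 arrays) and of small hepatocytes (3 arrays). The study asked which miRNAs mesenchymal EVs carry that could act on growing hepatocytes.

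By the labels, the MSCs are bone marrow mesenchymal cells grown on plastic dishes, and the MHs are liver parenchymal cells grown on dishes coated with type I collagen. Both were kept for 2 days in DMEM without fetal bovine serum before the EVs were taken from the medium. By the methods, the MHs came from healthy rats aged 8 to 12 weeks. Liver cells were isolated from rats expressing dipeptidyl peptidase IV. The strain named as expressing this enzyme was F344/Nslc, of which males gave the donor cells. For the marrow cells, the sources used here give no age, strain or passage. The Thy1-positive cells are labelled as rat liver stem cells, grew on plastic by the labels and came from livers injured with d-galactosamine. Kind of cell, tissue and culture surface differ together between MSC-EVs and MH-EVs and cannot be told apart. Whether the 3 arrays of a group stand for independent cultures is stated nowhere, and the p-values therefore measure only the spread between arrays, which may be technical. In such bulk vesicle RNA, fewer EVs of a kind and fewer miRNA copies per EV cannot be told apart.

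MicroRNAs are short RNAs that guide the silencing of mRNAs, mainly through the bases of their seed, and cells release part of them inside EVs. Hepatocytes are known for very high miR-122 and for the miR-192/194 clusters, whereas mesenchymal cells are known for miR-143/145, miR-199a, miR-21 and miR-221/222. miR-144 and miR-451 are made in developing red blood cells, and miR-142 and miR-223 mark leukocytes. Bone marrow holds the precursors of both of these lineages.

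The mature sequences below belong to the miRNAs on which the comparison turns. They come from RefSeq for the rat build GRCr8, run 5′ to 3′, and carry the seed (bases 2 to 8) in capitals. RefSeq gave a sequence for 345 of the 387 miRNAs tested. The first set was lower in MSC-EVs under every scaling of the arrays described further on and holds the hepatocyte miRNAs and members of the miR-290 cluster.
miR-122-5p: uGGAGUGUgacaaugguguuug
miR-122-3p: aACGCCAUcaucacacuaa
miR-192-5p: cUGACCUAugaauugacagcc
miR-194-5p: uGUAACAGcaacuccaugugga
miR-101b-3p: uACAGUACugugauagcugaa
miR-31a-5p: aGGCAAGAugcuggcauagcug
miR-10a-5p: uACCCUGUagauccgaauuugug
miR-291a-5p: cAUCAAAGuggaggcccucucu
miR-294: cUCAAAAUggaggcccuaucu

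The second set was higher in MSC-EVs under every scaling. miR-146a-5p and miR-146b-5p share a seed and differ in 2 of 22 compared bases, and miR-221-3p and miR-222-3p share a seed but differ in 10 of 21.
miR-451-5p: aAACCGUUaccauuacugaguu
miR-144-3p: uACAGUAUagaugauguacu
miR-146a-5p: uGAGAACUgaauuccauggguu
miR-146b-5p: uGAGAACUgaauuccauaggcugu
miR-221-3p: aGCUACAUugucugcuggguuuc
miR-222-3p: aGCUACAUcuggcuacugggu
miR-181a-5p: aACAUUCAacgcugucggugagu
miR-34a-5p: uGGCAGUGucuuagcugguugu
miR-199a-3p: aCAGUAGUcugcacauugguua

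The third set was higher in MSC-EVs relative to the other miRNAs of the array and turned lower when the arrays were scaled by their spike control spots. miR-23a-3p and miR-23b-3p differ in 1 of 21 bases, miR-27a-3p and miR-27b-3p in 1 of 21, and let-7e-5p and let-7f-5p in 2 of 22. Probes of such close pairs, and of miR-146a-5p and miR-146b-5p above, may bind each other's target, so their separate values are uncertain.
miR-21-5p: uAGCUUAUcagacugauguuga
miR-143-3p: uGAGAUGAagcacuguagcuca
miR-145-5p: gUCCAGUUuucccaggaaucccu
miR-199a-5p: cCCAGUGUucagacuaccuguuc
miR-23a-3p: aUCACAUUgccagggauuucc
miR-23b-3p: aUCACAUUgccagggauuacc
miR-27a-3p: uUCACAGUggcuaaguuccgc
miR-27b-3p: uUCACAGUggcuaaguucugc
miR-24-3p: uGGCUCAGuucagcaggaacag
miR-16-5p: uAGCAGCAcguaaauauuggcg
let-7e-5p: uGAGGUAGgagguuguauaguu
let-7f-5p: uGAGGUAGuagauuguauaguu

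The arrays of the groups stood apart before any miRNA was compared. The MSC-EV arrays detected 174, 256 and 245 of the 727 miRNAs, against 528, 438 and 425 on the MH-EV arrays. The spots of the first spike control gave raw intensities of 30100 to 32905 on MSC-EV arrays and 5139 to 7915 on MH-EV arrays. Blank spots averaged 110.6 to 135.9 on MSC-EV arrays and 59.8 to 77.9 on MH-EV arrays. Their SD was 5.89 to 9.78 on MSC-EV arrays and 2.43 to 3.53 on MH-EV arrays. The detection limit, set by blank mean and SD, was therefore higher in raw intensity on MSC-EV arrays. A miRNA undetected there need not be absent. The summed miRNA intensity above blank was 64777 to 174654 on MSC-EV arrays and 286808 to 404692 on MH-EV arrays, the opposite order to the spike. Log2 intensities of the miRNAs tested correlated at r = 0.943 to 0.974 among MSC-EV arrays, 0.929 to 0.990 among MH-EV arrays and 0.725 to 0.788 between the groups (across miRNAs, which are not independent replicates).

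**Figure D1:**
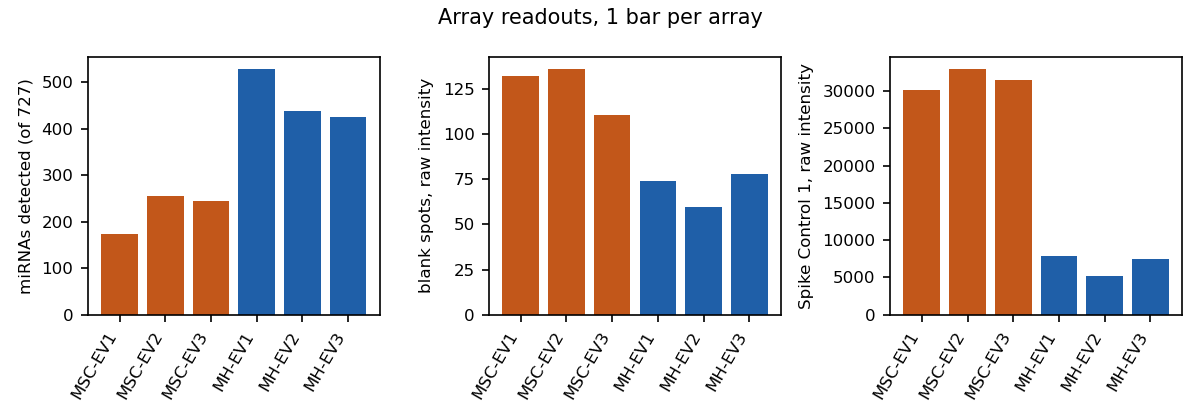
Number of miRNAs detected, mean raw intensity of the blank spots and raw intensity of the first spike control, 1 bar per array. The 3 MSC-EV arrays detected 174 to 256 miRNAs with spike intensities of 30100 to 32905, and the 3 MH-EV arrays detected 425 to 528 with 5139 to 7915.

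A fold change between these groups therefore depends on what is held equal. The main values below come from quantile normalization, which gives all 12 arrays the same distribution, and state a level relative to the other miRNAs of the array. Log2 intensities and log2 fold changes (MSC-EV minus MH-EV) are on this scale unless another is named, with standard errors and adjusted p from limma. A miRNA was tested where it was detected on every array of at least 1 of the 4 groups. The other 6 scalings were the median and the 75th percentile of the 150 miRNAs detected on all 12 arrays, cyclic loess, the spike control spots, no scaling, and the authors' own normalized values. An undetected miRNA has no authors' value and was set there to the lowest such value of its array. Of the 387 miRNAs tested, 116 were detected on every MH-EV array and no MSC-EV array, so the counts with the authors' values rest in part on these fills.

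Of 387 miRNAs tested, 137 (35.4%) differed between MSC-EVs and MH-EVs, 57 higher (14.7%) and 80 lower (20.7%) in MSC-EVs (limma, adjusted p under 0.05). The groups did not overlap for 194 miRNAs (50.1%), 69 higher (17.8%) and 125 lower (32.3%) in MSC-EVs. The median log2 fold change was -0.13 and the median standard error 0.19. Changes over 2-fold were called for 33 higher and 38 lower miRNAs, and over 4-fold for 16 higher and 11 lower ones. The spike scaling turned this split to 2 higher and 358 lower with a median log2 fold change of -1.80, and the median of the common miRNAs turned it to 127 higher and 39 lower with a median of 0.39.

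Detection shapes the lower calls more than the higher ones. Of the 80 lower miRNAs, 31 were detected on all 6 arrays, 29 on no MSC-EV array and 20 on 1 or 2 of them. Of the 57 higher miRNAs, 46 were detected on all 6 arrays. Among the 163 miRNAs tested that were detected on all 6, 46 (28.2%) were higher and 31 (19%) lower in MSC-EVs. A miRNA detected on no array of MSC-EVs or of MH-EVs may have entered the test only through the EVs in which it was bright. Its p is therefore given as a description, beside a bound in place of a fold change. Each such bound holds for quantile normalization only, and another scaling can give a smaller difference. Of the miRNAs named below, miR-101b-3p and miR-210-3p were detected on 1 of 3 MSC-EV arrays, and miR-31a-5p, miR-294, miR-23a-5p, miR-24-2-5p, miR-342-3p and miR-133b-3p on 2 of 3. On MH-EV arrays, miR-146b-5p was detected on 2 of 3, and miR-487b-3p and miR-451-5p on 1 of 3. Such partly detected miRNAs may also have entered the test only through the EVs in which they were bright. Their p is likewise a description.

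Hepatocyte miRNAs were low in MSC-EVs, and the 4 lowest fitted values of all miRNAs tested belonged to miR-122-3p, miR-122-5p, miR-192-5p and miR-194-5p. Of 17 on the list, 15 were tested and 8 were lower, none higher, beside 20.7% lower among all miRNAs tested, with a list median log2 fold change of -0.66. Of these 8, 4 were detected on no MSC-EV array. This median was negative under all 7 scalings, between -0.26 and -3.70, with 7 to 15 members lower and at most 1 higher. As markers of the MH-EV label, miR-122-5p, miR-192-5p and miR-194-5p had a summed raw intensity above blank of 87.1 to 475 on MSC-EV arrays and 30971 to 52291 on MH-EV arrays.

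miR-122-5p is the dominant miRNA of the hepatocyte. It had log2 intensities of 8.18, 9.10 and 8.08 in MSC-EVs, against 14.29, 14.29 and 13.77 in MH-EVs. In raw intensity these were 203, 611 and 191 in MSC-EVs and 44091, 48376 and 25724 in MH-EVs. The 2 groups lay far apart, with the level in MH-EVs 50.7-fold that in MSC-EVs (log2 fold change -5.66, SE 0.40, limma adjusted p = 1.6e-06). It was still detected on all 3 MSC-EV arrays. Its other arm, miR-122-3p, had 6.002, 5.91 and 6.11 in MSC-EVs, where no array detected it, and 11.33, 11.32 and 12.56 in MH-EVs. Set against the dimmest detected miRNA on each MSC-EV array, it was at least 33.3-fold higher in MH-EVs (limma adjusted p = 5.0e-05). Both arms lie on chr18:61028831-61028885 of GRCr8, plus strand, within the span of a transcribed pseudogene.

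miR-192 and miR-194 are expressed together in liver, gut and kidney, and their genes Mir192 and Mir194-2 lie within chr1:212994038-212994296 (GRCr8, plus strand). miR-192-5p had log2 intensities of 6.89, 6.03 and 6.40 in MSC-EVs and 10.76, 11.04 and 10.20 in MH-EVs. miR-194-5p had 5.97, 5.98 and 6.03 in MSC-EVs and 9.88, 10.20 and 10.02 in MH-EVs. Neither was detected on any MSC-EV array, and the groups did not overlap. The levels in MH-EVs were at least 15.9-fold higher for miR-192-5p (limma adjusted p = 9.9e-06) and at least 10.2-fold higher for miR-194-5p (limma adjusted p = 4.0e-07). The minor arm miR-192-3p had 6.02, 6.02 and 5.98 in MSC-EVs and 6.63, 6.64 and 6.74 in MH-EVs (limma adjusted p = 8.5e-04). No MSC-EV array detected it and the dimmest detected miRNAs there were as bright as it was in MH-EVs, so that no fold is given. miR-194-3p did not pass the test, at -0.34.

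Other hepatocyte miRNAs differed by smaller amounts. miR-101b-3p, which in the liver is known for repressing the methyltransferase Ezh2, had log2 intensities of 6.76, 6.55 and 6.05 in MSC-EVs and 8.67, 9.10 and 8.04 in MH-EVs (log2 fold change -2.15, SE 0.27, limma adjusted p = 1.4e-04). miR-193-3p had 8.75, 8.60 and 8.79 in MSC-EVs and 9.93, 10.06 and 11.64 in MH-EVs (-1.83, SE 0.47, limma adjusted p = 0.011). For both the groups did not overlap. miR-365-5p had 10.64, 9.28 and 9.88 in MSC-EVs and 11.44, 10.99 and 10.64 in MH-EVs, and the highest MSC-EV array reached the lowest MH-EV array (-1.09, SE 0.31, limma adjusted p = 0.019). Its call was lost without MSC-EV array 2 (-0.77) or 3 (-1.06) or MH-EV array 1 (-0.89).

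The 7 hepatocyte miRNAs that did not pass the test had log2 fold changes between -0.41 and 0.46. They were miR-365-3p (-0.41), miR-193-5p (-0.37), miR-194-3p (-0.34), miR-101a-3p (-0.12), miR-378a-3p (0.35), miR-378b (0.43) and miR-378a-5p (0.46). miR-378a is encoded within Ppargc1b, a gene that regulates mitochondrial metabolism.

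**Figure D2:**
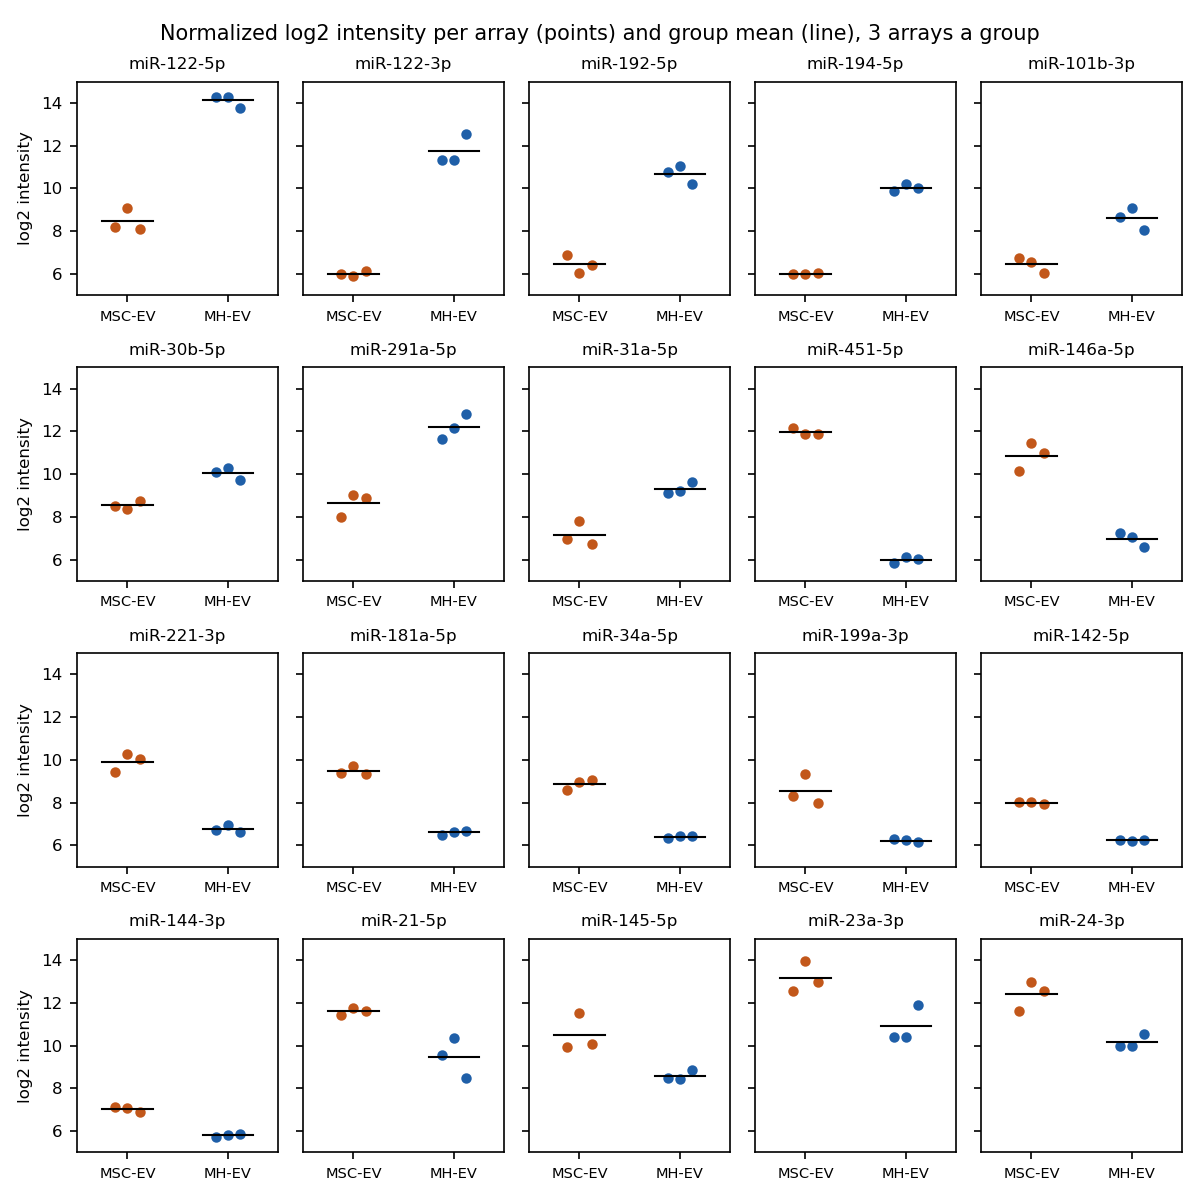
Normalized log2 intensity of 20 miRNAs on each MSC-EV array (left) and MH-EV array (right) as points, with the group mean as a line, after quantile normalization. miR-122-5p lay at 8.08 to 9.10 in MSC-EVs and 13.77 to 14.29 in MH-EVs, and miR-451-5p at 11.89 to 12.17 in MSC-EVs and 5.83 to 6.10 in MH-EVs. miR-21-5p, miR-145-5p, miR-23a-3p and miR-24-3p, higher in MSC-EVs here, were lower in MSC-EVs under the spike scaling.

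miR-451-5p was bright in MSC-EVs and near the blank spots in MH-EVs. Its gene Mir451a lies beside Mir144 within chr10:63459446-63459606 (GRCr8, plus strand). miR-451 matures by Ago2 cleavage without Dicer and is the most abundant miRNA of red blood cells. It had log2 intensities of 12.17, 11.89 and 11.89 in MSC-EVs, against 5.83, 6.10 and 6.02 in MH-EVs. The raw intensities were 1785, 3798 and 1520 in MSC-EVs and 74.1, 64.7 and 80.3 in MH-EVs, where 1 of 3 arrays detected it. The fitted level in MSC-EVs was 64.1-fold that in MH-EVs (log2 fold change 6.003, SE 0.21, limma adjusted p = 5.5e-09), set against a level that 2 of 3 MH-EV arrays did not measure above background.

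miR-144-3p had log2 intensities of 7.14, 7.08 and 6.88 in MSC-EVs and 5.72, 5.81 and 5.89 in MH-EVs, where no array detected it. After quantile normalization it was at least 1.94-fold higher in MSC-EVs (limma adjusted p = 7.0e-05). miR-451-5p and miR-144-3p were called higher in MSC-EVs under all 7 scalings, with fitted log2 fold changes of 4.11 to 7.65 and 0.45 to 1.72. They are the red cell markers, with a summed raw intensity above blank of 1431 to 3735 on MSC-EV arrays and 0 to 4.89 on MH-EV arrays, and the part of red cell vesicles or precursors in these values was not tested. miR-144-5p and miR-451-3p were detected on none of the 6 arrays and not tested.

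The miR-146 family, which dampens Toll-like receptor signalling through Irak1 and Traf6, was higher in MSC-EVs. miR-146a-5p had log2 intensities of 10.16, 11.44 and 10.99 in MSC-EVs, against 7.24, 7.03 and 6.60 in MH-EVs. Every MSC-EV array lay above every MH-EV array, with a level 14.97-fold that of MH-EVs (log2 fold change 3.90, SE 0.27, limma adjusted p = 1.6e-06). miR-146b-5p had 8.55, 9.45 and 9.45 in MSC-EVs and 6.56, 6.35 and 6.10 in MH-EVs (log2 fold change 2.82, SE 0.23, limma adjusted p = 5.1e-06). Both stayed positive under all 7 scalings, the lowest being 1.06 and 0.77 under the spike scaling. miR-146a-5p lies at chr10:28350053-28350074 (minus strand) within the span of a long non-coding RNA, and miR-146b-5p at chr1:255144874-255144897 (plus strand).

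Of the other leukocyte miRNAs, miR-142-5p had 8.005, 8.04 and 7.95 in MSC-EVs and 6.26, 6.19 and 6.26 in MH-EVs (log2 fold change 1.76, SE 0.09, limma adjusted p = 2.5e-07) and was positive under all 7 scalings. miR-223-3p, known from granulocytes, had 8.79, 8.03 and 8.14 in MSC-EVs and 7.41, 7.24 and 6.89 in MH-EVs (1.14, SE 0.22, limma adjusted p = 0.0021), and was negative under the spike scaling (-1.64) and with the authors' values (-0.78). In all, 5 of the 8 leukocyte miRNAs tested were higher and none lower in MSC-EVs, beside 14.7% higher among all tested, with a median of 0.81 that turned to -1.26 under the spike scaling. miR-342-3p was the fifth (0.48, limma adjusted p = 0.043), turned to -1.05 under the spike scaling and lost its call when any array but MSC-EV array 2 was left out (0.43 to 0.48). The 4 leukocyte markers had a summed raw intensity above blank of 168 to 405 on MSC-EV arrays and 153 to 308 on MH-EV arrays, and miR-142-3p was detected on no MSC-EV array. The part of leukocyte vesicles in these values was not tested.

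miR-221 and miR-222 repress the cell cycle inhibitor p27 and the receptor Kit, and their genes lie within chrX:6022682-6023268 (GRCr8, plus strand). miR-221-3p had log2 intensities of 9.42, 10.28 and 10.02 in MSC-EVs, against 6.72, 6.94 and 6.64 in MH-EVs (log2 fold change 3.14, SE 0.23, limma adjusted p = 2.5e-06). miR-222-3p had 7.25, 7.70 and 7.49 in MSC-EVs and 5.81, 6.07 and 6.05 in MH-EVs, where no array detected it. After quantile normalization it was at least 2.65-fold higher in MSC-EVs (limma adjusted p = 9.9e-06). Neither overlapped between the groups, and both were positive under all 7 scalings, with fitted log2 fold changes of 0.44 and 0.37 under the spike scaling.

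A further set of miRNAs kept a positive fold change under every scaling. miR-181a-5p, a regulator of lymphocyte signalling, had 9.38, 9.72 and 9.35 in MSC-EVs and 6.49, 6.63 and 6.69 in MH-EVs (log2 fold change 2.88, SE 0.28, limma adjusted p = 2.2e-05). miR-34a-5p, a direct target of p53, had 8.60, 8.96 and 9.04 in MSC-EVs and 6.34, 6.44 and 6.44 in MH-EVs (2.46, SE 0.15, limma adjusted p = 4.6e-07). miR-199a-3p, a mesenchymal and stellate cell miRNA, had 8.29, 9.32 and 7.96 in MSC-EVs and 6.27, 6.23 and 6.16 in MH-EVs (2.30, SE 0.28, limma adjusted p = 8.8e-05). In each of them the 3 MSC-EV arrays lay above the 3 MH-EV arrays. Under the spike scaling their log2 fold changes were 0.38, 0.30 and 0.62. miR-181b-5p, of the same seed as miR-181a-5p, was higher by 1.21 (limma adjusted p = 8.6e-04) but lay at -0.04 under the spike scaling.

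miR-375-5p and miR-347 were the other bright miRNAs of this kind. miR-375-5p had log2 intensities of 12.84, 13.45 and 12.17 in MSC-EVs and 8.60, 8.60 and 8.22 in MH-EVs (log2 fold change 4.35, SE 0.49, limma adjusted p = 6.5e-05). miR-347 had 10.34, 11.17 and 10.20 in MSC-EVs and 6.90, 6.75 and 6.77 in MH-EVs (3.76, SE 0.44, limma adjusted p = 8.1e-05). Neither overlapped between the groups. The other arm of the miR-375 hairpin, miR-375-3p, did not pass the test, at -0.21. miR-487b-3p, of the imprinted Dlk1-Dio3 region, had 7.20, 7.68 and 7.17 in MSC-EVs and 6.06, 6.01 and 6.01 in MH-EVs (1.32, limma adjusted p = 7.7e-04). MSC-EVs were the only group in which every array detected miR-487b-3p. It thus entered the test through the EVs in which it was bright, and its p is given as a description. In all, 13 of the 57 higher miRNAs were positive under all 7 scalings, and 2 of them, miR-451-5p and miR-144-3p, were called under all 7.

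The mesenchymal miRNAs moved both ways. Of 33 on the list, 20 were tested, and 9 were higher and 3 lower in MSC-EVs, beside 14.7% higher and 20.7% lower among all tested. The list median of 0.46 turned to -1.70 under the spike scaling (0 higher, 15 lower), -1.54 with the authors' values (3 higher, 12 lower) and -0.27 without scaling (3 higher, 4 lower). The 5 mesenchymal markers had a summed raw intensity above blank of 691 to 4952 on MSC-EV arrays and 1430 to 2206 on MH-EV arrays, so their raw brightness did not separate the groups.

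miR-21-5p, which is raised in growing and injured tissue, had log2 intensities of 11.44, 11.74 and 11.64 in MSC-EVs and 9.58, 10.34 and 8.47 in MH-EVs. It was 4.42-fold higher in MSC-EVs without overlap (log2 fold change 2.14, SE 0.41, limma adjusted p = 0.0021) and turned to -1.64 under the spike scaling and -0.28 with the authors' values. Its raw intensities overlapped, with 1222, 3403 and 1233 in MSC-EVs and 1547, 1750 and 678 in MH-EVs. Without any scaling its log2 fold change was 0.46.

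miR-143 and miR-145, made from the long non-coding RNA Carmn in contractile mesenchyme, lie within chr18:57370033-57371428 (GRCr8, minus strand). miR-145-5p had 9.93, 11.53 and 10.06 in MSC-EVs and 8.49, 8.44 and 8.87 in MH-EVs (log2 fold change 1.91, SE 0.50, limma adjusted p = 0.012), and turned to -1.89 under the spike scaling and -0.65 with the authors' values. miR-143-3p had 8.63, 9.35 and 8.60 in MSC-EVs and 7.35, 7.26 and 6.46 in MH-EVs (1.83, SE 0.30, limma adjusted p = 7.4e-04), and turned to -0.84 under the spike scaling. The groups did not overlap for either miRNA. The second MSC-EV array was the brightest for both.

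miR-199a-5p, the arm opposite miR-199a-3p, had 7.76, 8.35 and 7.20 in MSC-EVs and 6.85, 6.81 and 6.68 in MH-EVs (log2 fold change 0.99, SE 0.22, limma adjusted p = 0.0056), and turned to -1.14 under the spike scaling and -0.53 with the authors' values. Their gene Mir199a2 and the neighbouring Mir214 lie within chr13:77116255-77121733 (GRCr8, plus strand), inside the span of Dnm3. miR-214-3p did not pass the test, at 0.17. miR-125b-5p had 10.45, 10.64 and 10.34 in MSC-EVs and 9.47, 9.17 and 9.06 in MH-EVs (1.24, SE 0.29, limma adjusted p = 0.0069), and was negative under the spike scaling (-2.68), with the authors' values (-1.44) and without scaling (-0.61). miR-335 was higher by 0.50 (limma adjusted p = 0.019) and negative under the same 3 scalings, and its call was lost without MSC-EV array 2 (0.41) or MH-EV array 2 (0.47).

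The 3 mesenchymal miRNAs that fell did so under all 7 scalings. miR-31a-5p had log2 intensities of 6.97, 7.82 and 6.73 in MSC-EVs, against 9.10, 9.20 and 9.62 in MH-EVs (log2 fold change -2.13, SE 0.26, limma adjusted p = 8.8e-05). miR-10a-5p, encoded in a Hox gene cluster, had 6.13, 6.20 and 5.87 in MSC-EVs, with no array detecting it, and 7.15, 7.14 and 7.95 in MH-EVs. It was at least 1.66-fold higher in MH-EVs (limma adjusted p = 4.1e-04). miR-99a-5p had 8.44, 9.38 and 8.55 in MSC-EVs and 9.62, 9.50 and 11.74 in MH-EVs (-1.50, SE 0.52, limma adjusted p = 0.044), and its call was lost without MSC-EV array 1 (-1.33) or 3 (-1.39) or MH-EV array 3 (-0.75).

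**Figure D3:**
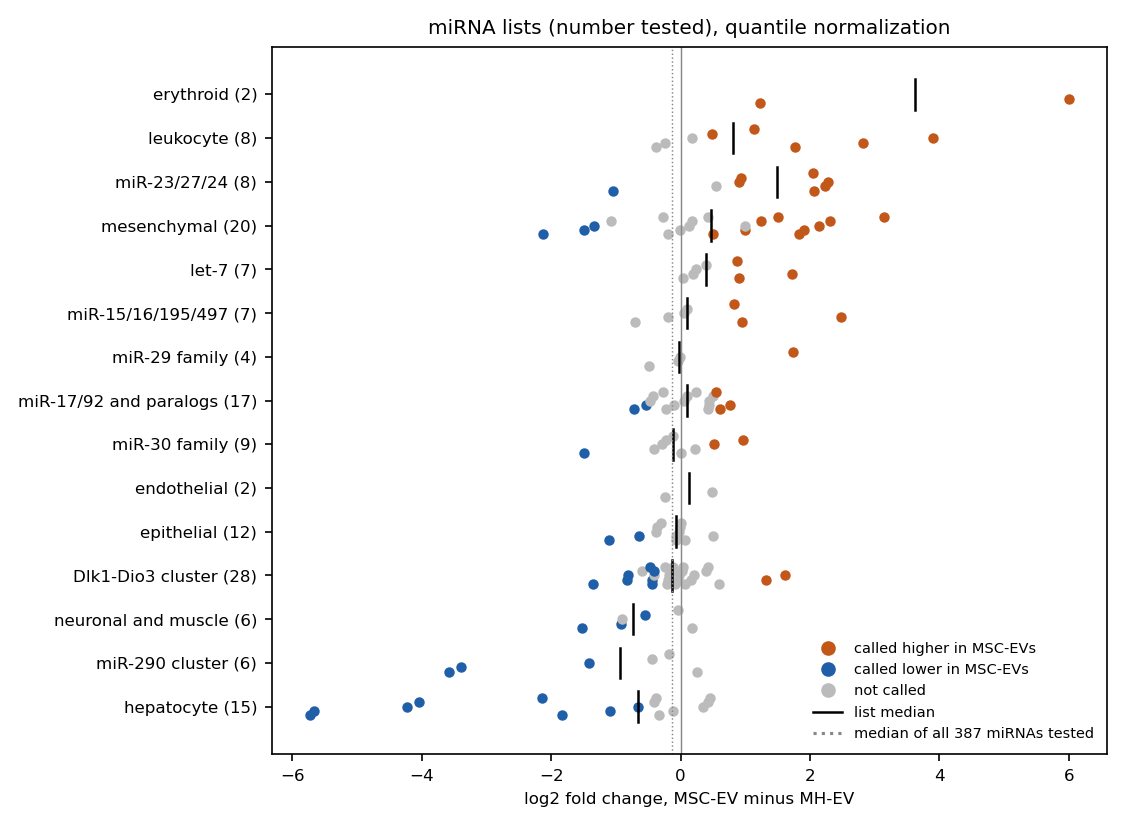
Log2 fold change (MSC-EV minus MH-EV, quantile normalization) of each tested miRNA, by list, with the number tested in parentheses, called miRNAs in colour and the list median as a black line. The hepatocyte list had 8 of 15 lower and the miR-23/27/24 list 6 of 8 higher. Under the spike scaling the median of the miR-23/27/24 list was -1.73, that of the mesenchymal list -1.70, that of the leukocyte list -1.26 and that of the let-7 list -3.52.

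The miR-23/27/24 clusters, paralogous on chromosomes 17 and 19, gave 6 higher and 1 lower of 8 tested, beside 14.7% higher and 20.7% lower among all tested, with a median of 1.49 that turned to -1.73 under the spike scaling and -0.38 with the authors' values. miR-23a-3p had log2 intensities of 12.56, 13.98 and 12.99 in MSC-EVs and 10.41, 10.41 and 11.89 in MH-EVs (log2 fold change 2.27, SE 0.43, limma adjusted p = 0.0018), and turned to -1.68 under the spike scaling. miR-24-3p, made from both clusters, had 11.64, 12.99 and 12.56 in MSC-EVs and 9.98, 9.98 and 10.53 in MH-EVs (2.23, SE 0.34, limma adjusted p = 4.5e-04), and turned to -1.78 under the spike scaling. miR-27a-3p had 10.41, 11.04 and 10.64 in MSC-EVs and 8.41, 8.66 and 8.84 in MH-EVs (2.06, SE 0.26, limma adjusted p = 1.1e-04), and turned to -1.71 under the spike scaling. None of the 3 overlapped between the groups.

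The close copies were miR-23b-3p at 2.05 (limma adjusted p = 0.0051) and miR-27b-3p at 0.94 (limma adjusted p = 0.013), which turned to -1.75 and -3.03 under the spike scaling. The call of miR-27b-3p was lost without MH-EV array 1 (0.82). The cluster of miR-23a, miR-27a and miR-24-2 lies at chr19:40859481-40859798 (minus strand), and 4 of 4 tested mature miRNAs placed there by RefSeq were higher, miR-24-2-5p among them at 0.89 (limma adjusted p = 0.0011), all negative under the spike scaling. The cluster of miR-23b, miR-27b and miR-24-1 lies at chr17:1818672-1819425 (minus strand, inside the span of Aopep), and 3 of 4 were higher, with the same turn. miR-23a-5p, the other arm of miR-23a, was lower, at 6.69, 6.49 and 6.93 in MSC-EVs and 8.20, 7.62 and 7.42 in MH-EVs (-1.05, SE 0.20, limma adjusted p = 0.0021), negative under all 7 scalings.

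miR-16-5p, a repressor of cyclins that is abundant in blood cells, had log2 intensities of 10.76, 10.60 and 10.76 in MSC-EVs and 8.29, 8.70 and 7.70 in MH-EVs (log2 fold change 2.47, SE 0.23, limma adjusted p = 1.3e-05), and turned to -1.32 under the spike scaling. Every MSC-EV array lay above every MH-EV array. miR-15b-5p, from the same locus in Smc4, had 8.11, 8.66 and 8.67 in MSC-EVs and 7.68, 8.001 and 7.29 in MH-EVs (0.82, SE 0.23, limma adjusted p = 0.018), and turned to -2.13 under the spike scaling. Its call was lost without MSC-EV array 2 (0.74) or 3 (0.75) or MH-EV array 3 (0.62). Of the 7 members of the miR-15/16 list tested, 3 were higher and none lower, beside 14.7% higher among all tested, with a median of 0.11 that turned to -1.32 under the spike scaling.

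The let-7 family, whose members share 1 seed and repress Lin28 and Ras mRNAs, had 3 of 7 tested members higher and none lower, beside 14.7% higher among all tested, with a median of 0.39 that turned to -3.52 under the spike scaling. let-7e-5p had 8.30, 8.47 and 8.005 in MSC-EVs and 6.38, 6.57 and 6.67 in MH-EVs (log2 fold change 1.72, SE 0.24, limma adjusted p = 2.8e-04), and turned to -0.43 under the spike scaling. let-7i-5p (0.91, limma adjusted p = 0.0082) and let-7f-5p (0.87, limma adjusted p = 0.0043) turned to -0.82 and -1.69 there. The other 4 members lay between 0.04 and 0.39. miR-29b-3p, which represses collagen mRNAs, was higher at 8.93, 8.71 and 8.99 in MSC-EVs and 6.92, 7.16 and 7.32 in MH-EVs (1.74, SE 0.18, limma adjusted p = 3.0e-05), and turned to -1.10 under the spike scaling. It was the only 1 of 4 tested miR-29 members that was called.

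Members of the miR-290 cluster were also low, a cluster known from mouse embryonic stem cells. Of 11 members, 6 were tested and 3 were lower in MSC-EVs, beside 20.7% among all tested, with a median of -0.93 that was negative under all 7 scalings. miR-291a-5p had log2 intensities of 7.98, 9.04 and 8.87 in MSC-EVs, against 11.64, 12.17 and 12.84 in MH-EVs (log2 fold change -3.59, SE 0.38, limma adjusted p = 3.7e-05). miR-294 had 6.87, 7.39 and 7.45 in MSC-EVs and 10.20, 10.16 and 11.53 in MH-EVs (-3.39, SE 0.35, limma adjusted p = 3.7e-05). miR-290 had 7.49, 7.23 and 7.21 in MSC-EVs and 9.13, 8.67 and 8.36 in MH-EVs (-1.41, SE 0.23, limma adjusted p = 7.5e-04). The groups did not overlap in any of them. The other 3 tested members lay between -0.45 and 0.26. The cluster lies at chr1:74878019-74880123 (GRCr8, minus strand), within the span of Nlrp12.

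miR-30b-5p, of the miR-30 family abundant in epithelia, had 8.52, 8.38 and 8.75 in MSC-EVs and 10.11, 10.28 and 9.72 in MH-EVs (log2 fold change -1.49, SE 0.18, limma adjusted p = 8.8e-05). It was called lower under all 7 scalings, but over the family 2 were higher, 1 lower and 6 not called of 9 tested, beside 14.7% higher and 20.7% lower among all tested. The other low miRNAs detected on all 6 arrays included miR-3065-3p, with 8.87, 8.30 and 8.71 in MSC-EVs and 12.40, 12.40 and 10.41 in MH-EVs (-3.11, SE 0.43, limma adjusted p = 2.6e-04). miR-675-5p, made from the imprinted H19 RNA, had 7.72, 7.17 and 7.53 in MSC-EVs and 9.65, 9.54 and 9.42 in MH-EVs (-2.06, SE 0.29, limma adjusted p = 2.6e-04). miR-760-3p (-2.05), miR-326-5p (-1.69) and miR-208a-5p (-1.52) were also lower, with limma adjusted p of 6.2e-04, 0.0011 and 0.035. These 6 miRNAs kept their call under all 7 scalings, but miR-208a-5p lost it when any array but MH-EV array 2 was left out (-1.59 to -1.25).

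The counts of called miRNAs in lists of other cell types and clusters moved with the scaling. Among all 387 miRNAs tested, 14.7% were higher and 20.7% lower with quantile normalization, and 32.8% higher and 10.1% lower with the median of the common miRNAs. The epithelial list had 0 higher and 2 lower of 12 tested with quantile normalization, both detected on no MSC-EV array, and 5 higher and 0 lower with the median of the common miRNAs. The summed raw intensity of its 5 markers of the miR-200 family above blank was 0.998 to 1.67 on MSC-EV arrays and 27.4 to 42.3 on MH-EV arrays. Both sums are small beside blank spots of 59.8 to 77.9 on MH-EV arrays. All 3 MH-EV arrays detected 1 of the 5 markers, and no MSC-EV array detected any. miR-200a-3p (0.007) and miR-200b-3p (-0.071) did not pass the test, and miR-200c-3p, miR-141-3p and miR-429 were not tested. miR-203a-3p, a skin and epithelial miRNA, was detected on no MSC-EV array and was at least 1.56-fold higher in MH-EVs (limma adjusted p = 0.0072). The endothelial markers had 47.6 to 142 on MSC-EV arrays and 91.2 to 220 on MH-EV arrays, with neither tested member called. The neuronal and muscle list had 3 lower of 6, among them miR-133b-3p (-0.93, limma adjusted p = 0.0021), against 1 higher and 1 lower with the median of the common miRNAs. The imprinted Dlk1-Dio3 list had 2 higher and 7 lower of 28 tested, 4 of the 7 detected on no MSC-EV array, which turned to 11 higher and 1 lower there. The miR-17/92 list, a cluster known for driving proliferation, had 3 higher and 2 lower of 17, which turned to 8 higher and 0 lower there. miR-210-3p, the miRNA induced by hypoxia, had 5.93, 6.69 and 6.39 in MSC-EVs and 7.19, 7.42 and 8.08 in MH-EVs (log2 fold change -1.23, SE 0.27, limma adjusted p = 0.0043), and kept its call under all 7 scalings.

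A list of 7 miRNAs held the 6 picked for follow-up (miR-451-5p, miR-3473, let-7f-5p, miR-199a-5p, miR-125b-5p and miR-145-5p) and miR-146a-5p, known from earlier work. All 7 were higher in MSC-EVs with quantile normalization, beside 14.7% among all tested, with a median of 1.91. This is no independent evidence of their direction, because the study chose part of them on these arrays. Under the spike scaling the median was -1.32, with 1 higher (miR-451-5p) and 4 lower. miR-3473 had 13.23, 14.29 and 14.29 in MSC-EVs and 12.07, 11.53 and 9.81 in MH-EVs (log2 fold change 2.799, SE 0.62, limma adjusted p = 0.0046), and turned to -1.32 under the spike scaling.

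The counts of called miRNAs in this paragraph stand beside 35.4% called among all 387 tested, 14.7% higher and 20.7% lower. Among the 345 miRNAs with a RefSeq sequence, 37 seeds were shared by at least 2 of those tested. Of these, 12 had 2 or more members called, each seed in 1 direction, among them the seeds of miR-146a/b, miR-221/222, miR-23a/b, miR-27a/b and miR-181a/b above. These counts leave out the called miRNAs with no sequence here, such as miR-99a-5p and miR-30b-5p. Of 86 hairpins with both arms tested, 9 had both called, 8 of them the same way, and the 5p arm of the other, miR-487b, was detected on no MSC-EV array. Of 37 groups of miRNAs lying within 10000 bases of each other, 17 had 2 or more called and 13 of these went 1 way. The median GC content was 47.8% for the higher, 54.5% for the lower and 52.4% for all miRNAs tested, over the 96.5%, 90.0% and 89.1% of them with a sequence. Close copies share probe sequence, and miRNAs of a hairpin or cluster share a transcript, so these counts are no independent observations.

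The plot of 7 scalings shows how the fold changes move with the scaling. Of the 57 miRNAs higher in MSC-EVs, 13 were positive under all 7, and of the 80 lower ones, 60 were negative under all 7 and 32 kept their call. The median of all miRNAs tested was -1.80 under the spike scaling, -1.92 with the authors' values and -0.46 without scaling. It was at most 0.41 elsewhere. Negative directions therefore hold more readily than positive ones, and the 2 counts are not comparable. The calls were 166 (127 higher, 39 lower) with the median of the common miRNAs, 171 (134 higher, 37 lower) with their 75th percentile and 137 (67 higher, 70 lower) with cyclic loess. They were 131 (13 higher, 118 lower) without scaling, 263 (14 higher, 249 lower) with the authors' values and 360 (2 higher, 358 lower) with the spike scaling. The median of the hepatocyte list lay below that of all miRNAs tested under each of these, and miR-451-5p and miR-144-3p lay above 0.

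**Figure D4:**
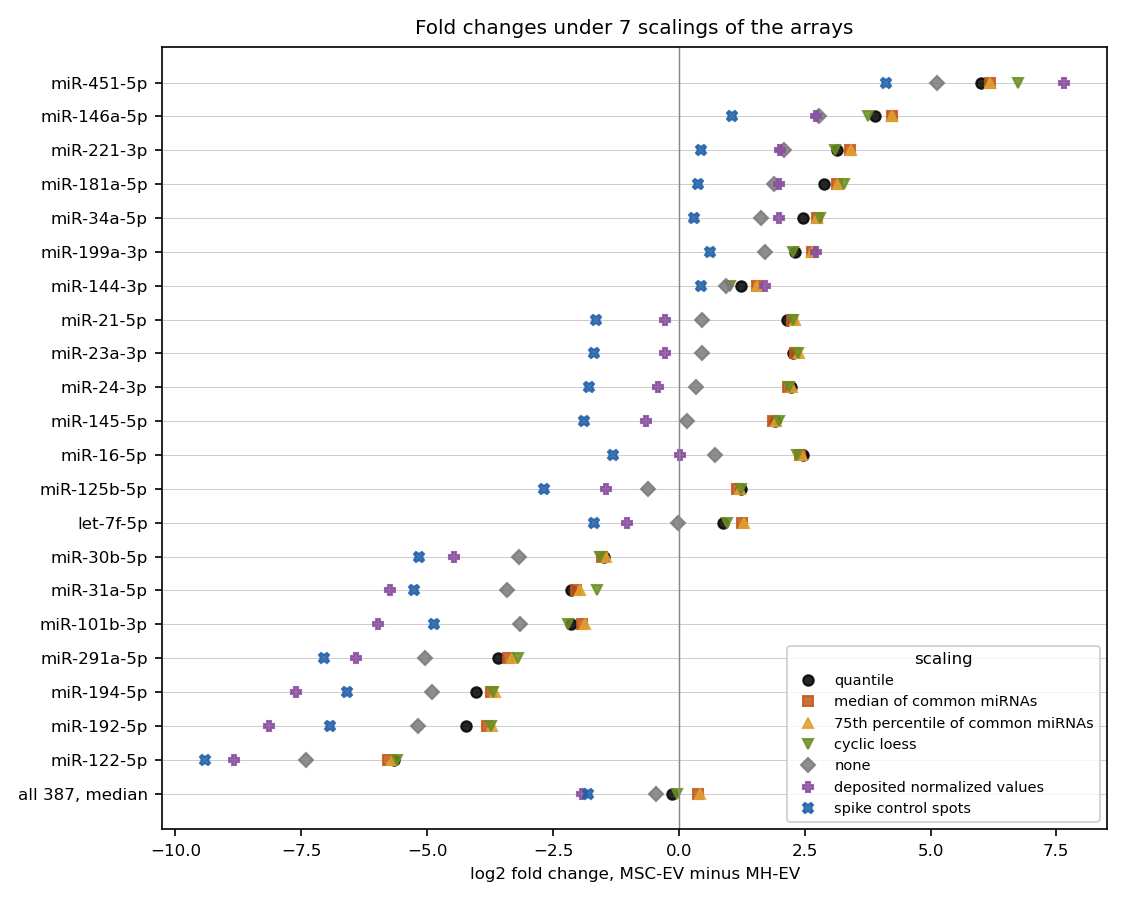
Log2 fold change (MSC-EV minus MH-EV) of 21 miRNAs and the median of all 387 tested, 1 marker per scaling of the arrays. miR-451-5p lay between 4.11 and 7.65 and miR-122-5p between -9.41 and -5.61. miR-21-5p, miR-23a-3p, miR-24-3p, miR-145-5p, miR-16-5p, miR-125b-5p and let-7f-5p fell on both sides of 0, with the spike scaling the lowest.

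Whether these differences set MSC-EVs apart from other mesenchymal EVs was tested against Thy1-EVs in the same model. Since both share the MH-EV arrays as their counterpart, this contrast is also the test of whether MSC-EVs and Thy1-EVs differ in their distance from MH-EVs. Of the 387 miRNAs, 41 (10.6%) were higher and 50 (12.9%) lower in MSC-EVs than in Thy1-EVs (limma, adjusted p under 0.05). Under the spike scaling the calls dropped to 10, and of the miRNAs named below miR-146a-5p, miR-10a-5p, miR-664-1-5p and miR-125b-1-3p were among these.

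miR-146a-5p had 10.16, 11.44 and 10.99 in MSC-EVs and 6.10, 5.93 and 6.04 in Thy1-EVs, where no array detected it. It was at least 21.9-fold higher in MSC-EVs (limma adjusted p = 9.5e-07). miR-16-5p had 10.76, 10.60 and 10.76 in MSC-EVs and 8.10, 7.96 and 7.73 in Thy1-EVs (2.77, limma adjusted p = 9.4e-06). miR-221-3p had 9.42, 10.28 and 10.02 in MSC-EVs and 7.31, 7.40 and 6.69 in Thy1-EVs (2.77, limma adjusted p = 1.1e-05). miR-21-5p had 11.44, 11.74 and 11.64 in MSC-EVs and 9.87, 10.06 and 8.96 in Thy1-EVs (1.97, limma adjusted p = 0.0065). In all 4 the MSC-EV arrays lay above the Thy1-EV arrays.

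miR-451-5p was high in both mesenchymal EVs, with 12.17, 11.89 and 11.89 in MSC-EVs and 11.43, 10.90 and 10.45 in Thy1-EVs (log2 fold change 1.06, SE 0.21, limma adjusted p = 0.0045), and its difference turned to -0.06 under the spike scaling. miR-30b-5p had 8.52, 8.38 and 8.75 in MSC-EVs and 7.35, 7.19 and 7.22 in Thy1-EVs (1.30, limma adjusted p = 4.2e-04), so that MSC-EVs lay between Thy1-EVs and MH-EVs. miR-378a-3p, not called against MH-EVs, had 10.06, 10.45 and 10.53 in MSC-EVs and 7.66, 7.73 and 9.35 in Thy1-EVs (2.10, SE 0.41, limma adjusted p = 0.0045). miR-378b did likewise (2.25, SE 0.34, limma adjusted p = 0.0011).

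In the other direction, miR-10a-5p had 6.13, 6.20 and 5.87 in MSC-EVs and 8.66, 8.91 and 8.87 in Thy1-EVs, and was at least 4.38-fold higher in Thy1-EVs (limma adjusted p = 4.9e-06). miR-31a-5p had 6.97, 7.82 and 6.73 in MSC-EVs and 9.13, 9.42 and 8.91 in Thy1-EVs (-1.98, limma adjusted p = 3.1e-04), and like miR-10a-5p it was lower in MSC-EVs than in both Thy1-EVs and MH-EVs. let-7e-5p had 8.30, 8.47 and 8.005 in MSC-EVs and 8.67, 9.13 and 9.77 in Thy1-EVs (-0.94, limma adjusted p = 0.017), and its call was lost without MSC-EV array 3 (-0.83) or Thy1-EV array 3 (-0.63). miR-664-1-5p (-2.30, limma adjusted p = 1.8e-04) and miR-125b-1-3p (-2.15, limma adjusted p = 0.0024) were also lower in MSC-EVs than in Thy1-EVs.

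Other miRNAs did not pass the test against Thy1-EVs. miR-145-5p had 9.93, 11.53 and 10.06 in MSC-EVs and 10.10, 10.20 and 11.17 in Thy1-EVs, which overlapped (log2 fold change 0.02, limma adjusted p = 0.98). miR-125b-5p (-0.20, limma adjusted p = 0.63), miR-199a-5p (0.51, limma adjusted p = 0.12) and miR-23a-3p (0.67, limma adjusted p = 0.29) were also not called. miR-122-5p, with 8.18, 9.10 and 8.08 in MSC-EVs and 8.99, 9.38 and 10.34 in Thy1-EVs, had -1.11 in this contrast (SE 0.40, limma adjusted p = 0.068), and was called without MSC-EV array 2 (-1.43) or Thy1-EV array 1 (-1.42).

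**Figure D5:**
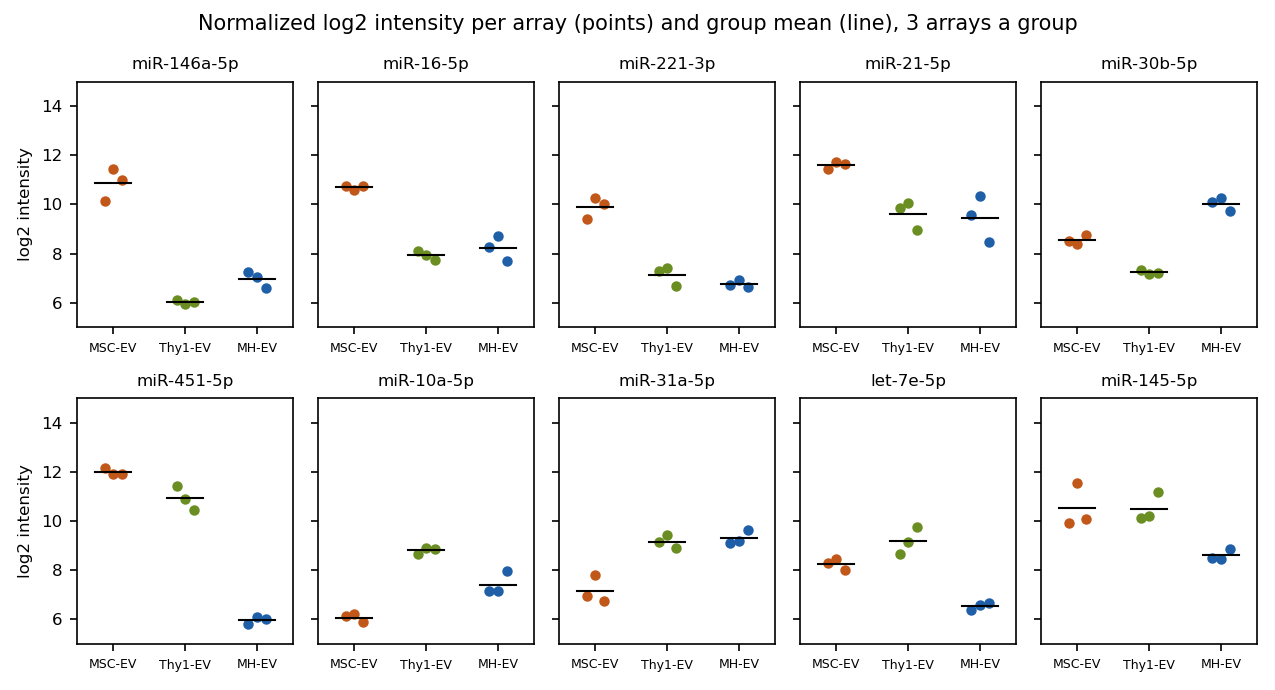
Normalized log2 intensity of 10 miRNAs on each MSC-EV, Thy1-EV and MH-EV array (left to right) as points, with the group mean as a line, after quantile normalization. miR-146a-5p lay at 10.16 to 11.44 in MSC-EVs, 5.93 to 6.10 in Thy1-EVs and 6.60 to 7.24 in MH-EVs, whereas miR-145-5p overlapped between MSC-EVs and Thy1-EVs. Under the spike scaling miR-16-5p, miR-21-5p, let-7e-5p and miR-145-5p were lower in MSC-EVs than in MH-EVs.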

How the data were processed

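miRNA from EVs was measured with a 1-colour (Cy3) 3D-Gene miRNA Oligo Chip for the miRNAs of miRBase release 20. For every spot the authors deposited a raw, a background-subtracted and a normalized intensity, and a table of the normalized intensity of all arrays that matched these. From the values, background is the blank mean after trimming 5% from each end, detection is a value over that mean plus 2 SD (6 of 8724 values lay off this rule), and detected probes have a median normalized intensity of 25. No source used here gives scanner, software, slide or scan date, so no batch could be tested.

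The raw intensity was corrected by normexp (offset 50), quantile-normalized over 12 arrays and taken to log2 with limma 3.58.1 in R 4.3.3. The 2 values marked as unreliable in the files were left out. The model (lmFit, eBayes) held 1 mean per group over the 12 arrays, with Benjamini-Hochberg adjustment over 387 probes at 0.05. With 3 arrays a group, their number limits the precision. Lower bounds used the lowest detected level of each array after quantile normalization. Lists, members and named miRNAs (the most significant per list, the extremes by fold change or bound, and the study's choices) were chosen with earlier results of these data known. Alternatives changed the background, scaling, filter, test, samples and replicates. The model was tested on simulated data.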

Additional observations from a re-analysis of the deposited data

Results flagged for a closer look

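Of the 59 miRNAs named for MSC-EVs against MH-EVs, 27 had a different distance to MH-EVs in MSC-EVs than in Thy1-EVs. The test was the contrast between the mesenchymal EVs (limma, adjusted p under 0.05, 3 arrays each). It placed 24 above and 3 below Thy1-EVs. Over the 387 miRNAs, the same contrast called 41 (10.6%) up and 50 (12.9%) down. The 59 were picked in part by their difference from MH-EVs, so the same MSC-EV arrays entered the choice and this contrast. The split of 24 to 3 therefore cannot show a general direction against Thy1-EVs. The fitted log2 fold changes of MSC-EVs over Thy1-EVs were 4.84 for miR-146a-5p, which no Thy1-EV array detected, 2.93 for miR-146b-5p, 2.77 for miR-221-3p, 2.77 for miR-16-5p and 1.97 for miR-21-5p. They were 1.69 for miR-375-5p, 1.48 for miR-142-5p, 1.41 for miR-347, 1.36 for miR-199a-3p, 1.30 for miR-143-3p, miR-27a-3p, miR-34a-5p and miR-30b-5p, and 1.26 for miR-15b-5p. They were 1.19 for miR-181a-5p, 1.17 for miR-223-3p, 1.08 for miR-222-3p, 1.06 for miR-451-5p, 0.89 for miR-29b-3p, 0.77 for miR-335, 0.72 for miR-487b-3p, 0.69 for let-7i-5p, 0.66 for miR-24-2-5p and 0.59 for let-7f-5p. The 3 lower ones were miR-10a-5p, which no MSC-EV array detected, at -2.74, miR-31a-5p at -1.98 and let-7e-5p at -0.94.

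Spots labelled as holding no probe gave a signal. The share of these 675 spots above the detection limit of their array was 50.5%, 64.4% and 69.8% on MSC-EV arrays and 74.7%, 52.9% and 76.7% on MH-EV arrays, although blank spots set that limit. No comparison used these spots.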

How the results depend on the processing

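With 3 arrays a group and unknown batches the spread is known only roughly, and miRNAs near background have only bounds. Over all scalings, 13 of 57 higher and 60 of 80 lower miRNAs kept their direction, counts that depend on how each scaling shifts all miRNAs. For the named miRNAs, 1600 values under alternatives kept direction and side of the threshold, 159 lost the call, 5 gained it and 43 reversed. The count of miRNAs called in MSC-EVs against MH-EVs (137) was 360 under the spike scaling, 263 with the authors' values, 64 over the miRNAs detected on all 12 arrays (fewer were tested) and 89 with the methods' t-test after adjustment. The median log2 fold change (-0.13) was 0.39 with the median and 0.41 with the 75th percentile of common miRNAs, -1.80 under the spike scaling, -0.46 without scaling, -1.92 with the authors' values and 0.10 over the miRNAs detected on all 12 arrays. The hepatocyte list had 15 called under the spike scaling, 15 with the authors' values and 3 over the miRNAs detected on all 12 arrays, and the mesenchymal list 7 without scaling and 6 over those miRNAs. MSC-EVs against Thy1-EVs gave 59 with the 75th percentile, 42 with cyclic loess, 10 under the spike scaling, 10 without scaling, 45 over the miRNAs detected on all 12 arrays and 23 with the adjusted t-test (91 in the main setting).

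Leaving out each array in turn gave 106 to 134 calls against MH-EVs, a median of -0.14 to -0.11, 7 to 10 hepatocyte and 11 to 12 mesenchymal calls, and 65 to 90 against Thy1-EVs. miR-342-3p and miR-208a-5p lost their call in 5 of the 6 omissions, miR-365-5p, miR-99a-5p and miR-15b-5p in 3, miR-335 in 2 and miR-27b-3p in 1. Same-numbered arrays of MSC-EVs and MH-EVs deviated from their group means with correlations of 0.27, -0.31 and -0.12. Without a reference from differently numbered arrays, these values cannot decide whether the numbers pair the arrays. The replicate block gave 144 calls (58 higher, 86 lower), 9 hepatocyte calls and 103 against Thy1-EVs. The alternatives for miRNAs named against Thy1-EVs were chosen after seeing the data.

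Under the spike scaling the log2 fold change turned to -1.64 for miR-223-3p and miR-21-5p, -0.84 for miR-143-3p, -1.89 for miR-145-5p, -1.14 for miR-199a-5p, -2.68 for miR-125b-5p, -1.68 for miR-23a-3p, -1.75 for miR-23b-3p, -1.71 for miR-27a-3p, -3.03 for miR-27b-3p, -1.78 for miR-24-3p, -1.32 for miR-16-5p and miR-3473, -2.13 for miR-15b-5p, -0.43 for let-7e-5p, -1.69 for let-7f-5p, -1.10 for miR-29b-3p, -1.76 for miR-335, -0.63 for miR-24-2-5p, -0.82 for let-7i-5p, -0.039 for miR-181b-5p and -1.05 for miR-342-3p, and to -0.061 for miR-451-5p against Thy1-EVs. Without scaling it was -0.61 for miR-125b-5p, -0.98 for miR-27b-3p, -0.31 for miR-15b-5p, -0.0083 for let-7f-5p and -0.21 for miR-335. With the authors' values it was -0.78 for miR-223-3p, -0.28 for miR-21-5p and miR-23a-3p, -0.65 for miR-145-5p, -0.53 for miR-199a-5p, -1.44 for miR-125b-5p, -0.35 for miR-23b-3p, -0.42 for miR-27a-3p, -1.90 for miR-27b-3p, -0.41 for miR-24-3p, -1.35 for miR-15b-5p, -1.02 for let-7f-5p, -1.46 for miR-335, -0.13 for let-7i-5p and -0.94 for miR-342-3p. Why the spike and the miRNA signal run in opposite orders, and the cause of these turns, was not tested.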
